A study of Mus musculus with 4 samples.

Results

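The genes described here are 43 mitosis and spindle genes, out of 17574 genes with a value in tumours of the mouse squamous carcinoma line SCC7. The rule lists them by name, for their place in the machinery of G2/M, kinetochore, spindle and cytokinesis, and uses no measured value. The members were, however, chosen with earlier results of these data known. All 43 were found in the data. The tumours grew from cultured SCC7 cells injected under the skin of the back of C3H/HeN mice, and every sample carries the genotype label WT. The 2 groups were sequenced in bulk, each with 2 libraries from tumours taken on day 10. The control group is labelled only as control, and what these mice received is not named. The anti-CD71 group had been given, on day 6 and again on day 9, an antibody to CD71, which is the receptor that brings transferrin-bound iron into cells. The labels do not say whether the libraries of a group came from separate mice, so the p-values measure only the spread between these samples, which may be technical.

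A cell enters mitosis when the kinase Cdk1, bound to cyclin B, becomes active. Kinetochores, built on centromeres that carry the histone variant Cenpa, then hold the chromosomes to spindle microtubules, and the spindle checkpoint blocks anaphase until each is attached. The anaphase-promoting complex with its activator Cdc20 then has securin and cyclin B destroyed, after which the chromatids part and the cell divides. Most of these genes are transcribed mainly in G2 and mitosis, so in bulk tumour RNA their level follows how many of the cells divide as well as how much of the message each dividing cell holds. Differences in the number of dividing cells, or of cells of a type, and in the RNA per cell cannot be told apart in these data.

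Many genes of this kind share promoter elements. The stretches just before the start of a few members are shown because 4 of them hold a pair of such elements and 3, for contrast, hold neither. The cell cycle homology region (CHR) is read as TTTGAA or, on the other strand, TTCAAA. The CCAAT box, which the factor NF-Y binds, is read as CCAAT or ATTGG. Capitals mark every match of either element in the 80 bases before the start, and all stretches run 5′ to 3′ on the gene's own strand (RefSeq, GRCm38.p6). The first group has both elements, at chr2:164769849-164769928 (plus strand), chr4:118437344-118437423 (minus), chr10:69352913-69352992 (minus) and chr19:37376302-37376381 (plus).
Ube2c: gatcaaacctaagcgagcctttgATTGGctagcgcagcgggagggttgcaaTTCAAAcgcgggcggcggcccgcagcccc
Cdc20: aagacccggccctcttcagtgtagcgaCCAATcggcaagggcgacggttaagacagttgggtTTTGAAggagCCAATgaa
Cdk1: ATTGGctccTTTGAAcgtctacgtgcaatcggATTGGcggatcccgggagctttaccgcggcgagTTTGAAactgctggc
Kif11: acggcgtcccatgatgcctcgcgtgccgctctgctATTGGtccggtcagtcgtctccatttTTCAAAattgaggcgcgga
The second group has neither element, at chr11:117849157-117849236 (plus strand), chr1:169531465-169531544 (minus) and chr6:66535141-66535220 (plus).
Birc5: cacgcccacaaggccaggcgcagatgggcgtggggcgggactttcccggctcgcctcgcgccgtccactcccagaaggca
Nuf2: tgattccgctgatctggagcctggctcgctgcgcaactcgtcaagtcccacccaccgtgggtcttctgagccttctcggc
Mad2l1: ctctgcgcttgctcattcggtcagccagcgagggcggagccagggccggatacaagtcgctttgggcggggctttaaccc

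Counted from the start as position 0, the CHR of Ube2c began at -29 with a CCAAT box 28 bases before it. In Cdc20 the CHR began at -18 with a CCAAT box 35 bases before it. In Cdk1 these values were -15 and 33 bases, and in Kif11 -19 and 26 bases. The promoter table, with windows from 250 bases before to 50 after a start, held 36 of the 43 members in 38 windows. It had no entry for Kif20a, Ccna2, Incenp, Spc24, Aurkb, Tpx2 and Foxm1. A CHR lay in 29 of the 38 windows (76.3%), against 17.9% of all 32851 windows of the table. A CCAAT box lay in 28 (73.7%), against 37.4% of all windows, and both elements in 25 (65.8%), against 7.0%. Within 50 bases of the start, 27 of the member windows (71.1%) and 4.9% of all windows held a CHR. In 18 (47.4%) a CCAAT box began 20 to 50 bases before such a CHR, against 0.4% of all windows. The limits in the last pair of counts were chosen after the positions had been seen, and no test was made.

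Other elements were rare. The forkhead sequence TGTTTAC or GTAAACA, of the kind that Foxm1 binds, lay in 2 member windows (5.3%) and in 3.6% of all windows. The second CHR form TTCGAA, which is its own reverse complement, lay in 3 (7.9%), against 1.6%. The E2F sequence GGCGGGAA, on either strand, lay in 0 member windows and in 2.2% of all windows, and GCGCGAAA in 1 (2.6%), against 0.3%. None of these elements contains another, though neighbouring matches can overlap. Neither a CHR of either form nor a CCAAT box lay in the windows of Birc5, Nuf2, Mad2l1, Melk, Nusap1 and Pttg1, 15.8% of the member windows and 50.9% of all windows. A match describes letters only, and its absence says nothing about the factor.

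**Figure D1:**
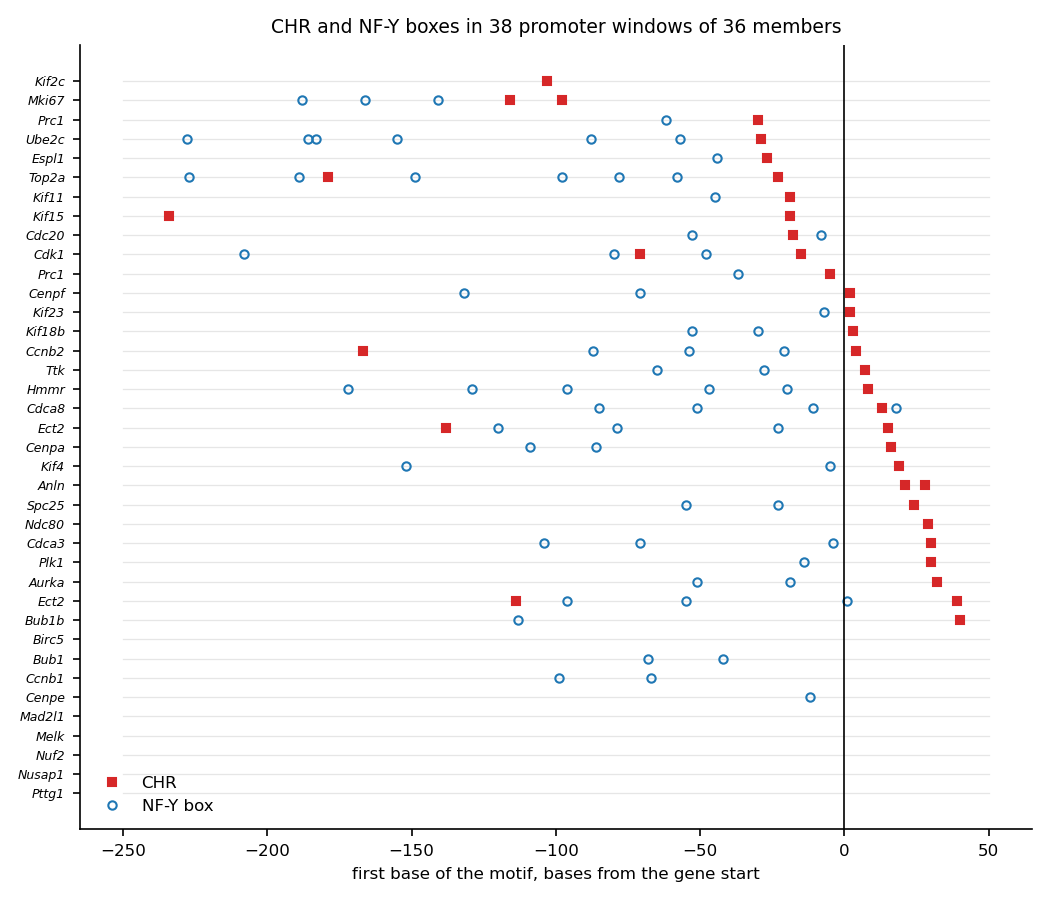
Position of each CHR (filled square) and each CCAAT box (open circle, named after NF-Y) in 38 promoter windows of 36 members, in bases from the gene start, with each window on a line of its own. In 27 windows a CHR lies within 50 bases of the start, and in 18 of them a CCAAT box begins 20 to 50 bases before it.

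Abundance was read as TPM, which is scaled to the same sum in every library, per RefSeq transcript and added here per gene. TPM keeps no read counts, so the depth behind a value is unknown. Complete files, for the controls and anti-CD71 replicate 2, listed 59881 transcripts. The file of anti-CD71 replicate 1 broke off after 13586 of them (22.69%), and transcripts beyond the break are missing, not 0. A pair of comparisons was therefore made with limma on log2(TPM + 1), with Benjamini-Hochberg adjustment over all genes tested and a gene called at an adjusted p under 0.05. The first set anti-CD71 replicate 2 against both controls for 11982 genes, the lone treated library being assumed to vary like the controls. The second used all 4 libraries for the 1563 genes whose transcripts in the short file carry at least 90% of their TPM. The controls are the same libraries in both. Over these 1563 genes, the log2 difference between the anti-CD71 libraries had an SD of 0.294, against 0.222 between the controls. The treated libraries thus lay further apart than the assumption in the first comparison takes them to, though this gap was not tested. The SEs, intervals and p-values of the first comparison may therefore make it look more precise than it is. All 43 members could be tested in the first comparison and 6 in the second.

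No member was rare in a complete library. Over the 43 members, TPM ran from 20.49 to 252.4 with a median of 58.46 in control replicate 1, and from 21.04 to 256.95 with a median of 53.92 in control replicate 2. In anti-CD71 replicate 2 it ran from 23.13 to 275.52 with a median of 63.84. Most members sat high in the tumour RNA: the median of all tested genes was 21.42, 21.76 and 20.94 TPM in the same order, and the lowest member stood at the 48.8 percentile of them. Their TPM added up to 3143.24 and 3100.61 in the controls (0.314% and 0.31% of the library), against 3438.63 in anti-CD71 replicate 2 (0.344%). The controls lay close together for these genes, with a median absolute difference of 0.036 on the log2 scale against 0.093 over all tested genes. The widest gap between the controls, 0.234, belonged to Plk1.

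Since TPM is per length, levels can be set side by side between genes. Ube2c, the ubiquitin-conjugating enzyme that works with the anaphase-promoting complex (chr2:164769929-164772902), was highest. Its TPM was 252.4 and 256.95 in the controls, against 275.52 in anti-CD71 replicate 2. Top2a, the topoisomerase that untangles sister chromatids, and Birc5, the survivin subunit of the chromosomal passenger complex, followed at control means of 218.5 ± 1.11 and 194.44 ± 1.46 TPM (SD, n = 2). The lowest members were the kinesins Kif15 and Kif4, at 20.76 ± 0.39 and 25.28 ± 0.17 TPM, and between them the kinetochore protein Cenpf at 22.06 ± 0.16 TPM. Kif15 stood at 20.49, 21.04 and 23.18 TPM in control replicates 1 and 2 and anti-CD71 replicate 2, Cenpf at 21.94, 22.17 and 23.13, and Kif4 at 25.16, 25.4 and 24.84. Among the lowest members, then, Kif15 and Cenpf were above both controls in the treated library and Kif4 was below them.

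**Figure D2:**
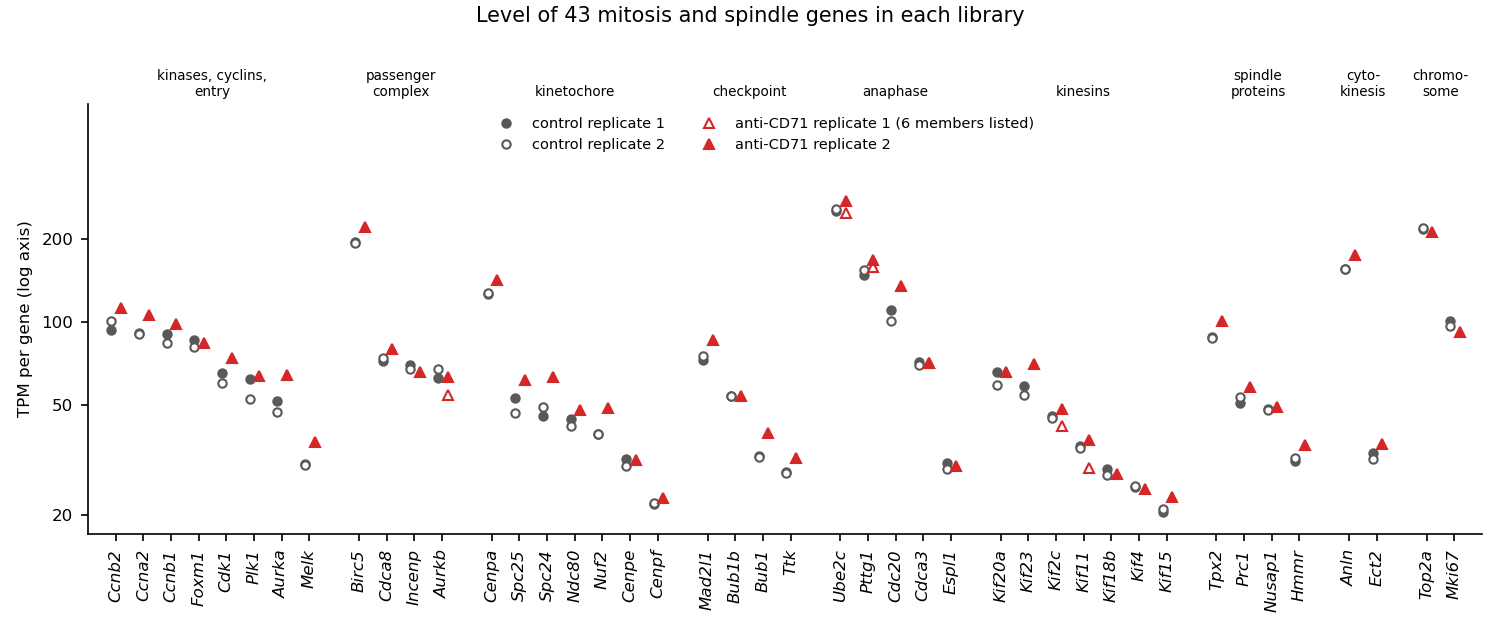
TPM of each of the 43 members on a log axis, grouped by role, with 1 point per library: circles for the controls and triangles for anti-CD71, open triangles for replicate 1 where at least 90% of the gene is listed. Open triangles sum the listed transcripts alone, while circles and filled triangles hold the whole gene. The open triangle of Cdca3 (71.04) thus lies between the circles, though its listed transcripts had 70.6 and 68.81 TPM in the controls. The filled triangle lies above both circles for 33 members, and the open triangle lies below both circles for 4 of the 6 members that have one.

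In anti-CD71 replicate 2, most members stood slightly above both controls, and none passed the test. The treated library was above both controls for 33 of 43 members (76.7%), between them for 6 and below both for 4 (9.3%). Over all tested genes, 39.5% were above both controls and 42.5% below both. A positive log2 difference was found for 37 members (86.0%), against 48.6% of all tested genes. The median log2 difference of the members was 0.15, or 11.1% higher, with quartiles of 0.03 and 0.21 and a range from -0.10 to 0.40. All tested genes had a median of -0.01 and quartiles of -0.18 and 0.14. A gene was tested only if it reached 1 TPM in at least 2 libraries, so a gene that did so in the treated library alone was left out. A gene lost from that library was still tested, so the shares called higher and lower are not on an equal footing. The number of members called was 0 in either direction, while 2.86% of all tested genes were called, 0.476% higher and 2.39% lower. At an unadjusted p under 0.05, 11 members (25.6%) passed, all of them higher in the treated library, against 24.7% of all tested genes, 10.7% higher and 14% lower. The smallest adjusted p of a member was 0.0874.

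The kinases and cyclins that start mitosis, 8 members with Foxm1, had a median difference of 0.22, and 7 of them were above both controls. Their TPM added up to 571.18 and 547.21 in the controls, against 640.08 in anti-CD71 replicate 2. Aurka, the Aurora kinase of the centrosome and spindle poles (chr2:172356190-172370886), stood at 51.62 and 47.2 TPM in the controls, against 64.41 in anti-CD71 replicate 2. The treated value was well clear of both controls, and the log2 difference was 0.38 (SE 0.1, 95% interval 0.13 to 0.62, limma adjusted p = 0.102). Cdk1, the kinase that drives entry, had 65.38 and 60.32 TPM in the controls and 73.87 in the treated library. Its partners stood at 91.08, 90.29 and 106.1 TPM for Ccna2, 90.68, 83.71 and 98.76 for Ccnb1 and 93.62, 101.15 and 112.68 for Ccnb2, with the treated library last. All of these cyclins were highest in the treated library, with log2 differences of 0.22, 0.18 and 0.21. The kinase Melk stood at 30.51, 30.27 and 36.64 TPM, a difference of 0.26 (adjusted p = 0.159). Plk1, the polo-like kinase, was above both controls by little: 62.28 and 52.82 TPM in the controls and 63.84 in the treated library (log2 difference 0.15, 95% interval -0.16 to 0.46). Foxm1, the transcription factor of many G2/M genes, lay between the controls at 83.78 TPM, with 86.01 and 81.45 in them.

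The outer kinetochore held the member with the highest difference of the set. Spc24, a subunit of the Ndc80 complex that grips microtubules (chr9:21755434-21760446), stood at 45.77 and 49.36 TPM in the controls, against 63.16 in anti-CD71 replicate 2. It was above both controls, 32.2% over their mean on the scale tested (log2 difference 0.40, SE 0.09, 95% interval 0.17 to 0.64, limma adjusted p = 0.0874). The other subunits of the same complex were also above both controls: Nuf2 at 39.32, 39.25 and 48.69 TPM, Spc25 at 52.97, 46.75 and 61.45, and Ndc80 at 44.69, 41.91 and 48.02. Their log2 differences were 0.30, 0.30 and 0.15, with adjusted p-values of 0.121, 0.176 and 0.371. Cenpa, the centromeric histone, had 125.96 and 127.38 TPM in the controls and 142.56 in the treated library. The motor Cenpe lay between the controls (31.98 and 29.99 TPM, against 31.76), so 6 of the 7 kinetochore and centromere members were above both.

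Of the spindle checkpoint, all 4 members were above both controls, though by unequal amounts. Bub1, the checkpoint kinase, stood at 32.84 and 32.5 TPM in the controls and 39.6 in the treated library (log2 difference 0.27, SE 0.09, adjusted p = 0.15). Mad2l1, which inhibits Cdc20, stood at 73.19, 75.08 and 86.46 TPM (0.22, adjusted p = 0.178), and the kinase Ttk at 28.64, 28.39 and 32.18. Bub1b, the pseudokinase partner of Bub1, was level: 53.89 and 53.92 TPM in the controls and 53.98 in the treated library, a difference of 0.00 with a 95% interval of -0.21 to 0.21.

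The anaphase genes were split. Cdc20, the activator that the checkpoint holds back (chr4:118432901-118437343), stood at 110.27 and 100.62 TPM in the controls, against 135.21 in anti-CD71 replicate 2. The treated library was above both controls (log2 difference 0.36, SE 0.09, 95% interval 0.13 to 0.59, limma adjusted p = 0.101). Pttg1, securin, stood at 147.82, 154.57 and 168.11 TPM (0.15), and Ube2c differed by 0.11. Separase, Espl1, which cleaves the cohesin ring once securin is gone, lay between the controls at 30.14 TPM, with 30.88 and 29.35 in them, as did the mitotic entry factor Cdca3 at 70.93, with 71.61 and 70.15.

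The chromosomal passenger complex, the Aurora B kinase with its scaffold and targeting subunits, had 2 of its 4 members above both controls. Birc5 stood at 195.47 and 193.4 TPM in the controls and 221.25 in the treated library (log2 difference 0.19, 95% interval 0.01 to 0.36, adjusted p = 0.186), and Cdca8, borealin, at 72.3, 74.02 and 80.05. The scaffold Incenp (chr19:9872295-9899489) was below both controls, at 69.73, 67.71 and 66.0 TPM (-0.06, SE 0.08, 95% interval -0.26 to 0.15, adjusted p = 0.693). The kinase Aurkb (chr11:69045624-69051664) lay between them, at 62.99, 67.44 and 63.27 TPM (-0.04, SE 0.09, 95% interval -0.27 to 0.18, adjusted p = 0.797). The subunits of this single complex thus differed by between -0.06 and 0.19 in the same library, and no difference between subunits was tested.

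Among the 7 mitotic kinesins, Kif23, the central spindle motor needed for cytokinesis (chr9:61917277-61946810), had the highest difference. It stood at 58.46 and 54.49 TPM in the controls, against 70.37 in anti-CD71 replicate 2, above both (log2 difference 0.31, SE 0.09, 95% interval 0.09 to 0.54, limma adjusted p = 0.126). The other motors differed little: Kif15 by 0.15, the depolymerase Kif2c by 0.10, the spindle-pole motor Kif11 by 0.08, Kif20a by 0.08, the chromokinesin Kif4 by -0.02 and Kif18b by -0.03. The 4 spindle proteins were all above both controls, by 0.20 for Tpx2, which activates Aurka, by 0.16 for Prc1 and for Hmmr and by 0.03 for Nusap1. The cytokinesis members were both above the controls: Anln, the anillin of the cleavage furrow, had 155.29 and 155.71 TPM in the controls and 174.53 in the treated library (0.17, adjusted p = 0.229), and Ect2, which activates RhoA there, differed by 0.14.

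The 2 members with a general part in chromosomes and proliferation stood on the low side. Mki67, the Ki-67 protein that coats mitotic chromosomes and serves as a marker of dividing cells (chr7:135689784-135716450), stood at 101.16 and 96.88 TPM in the controls, against 92.16 in anti-CD71 replicate 2. Top2a (chr11:98992947-99024199) stood at 217.72, 219.29 and 212.08 TPM. Both were below both controls and had the lowest and the third lowest differences of the set: -0.10 for Mki67 (SE 0.08, 95% interval -0.31 to 0.10, limma adjusted p = 0.467) and -0.04 for Top2a (SE 0.07, 95% interval -0.22 to 0.13, adjusted p = 0.728). The intervals of these genes and those of most of the other members span 0, and a p that misses the threshold does not show that the libraries had equal levels.

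**Figure D3:**
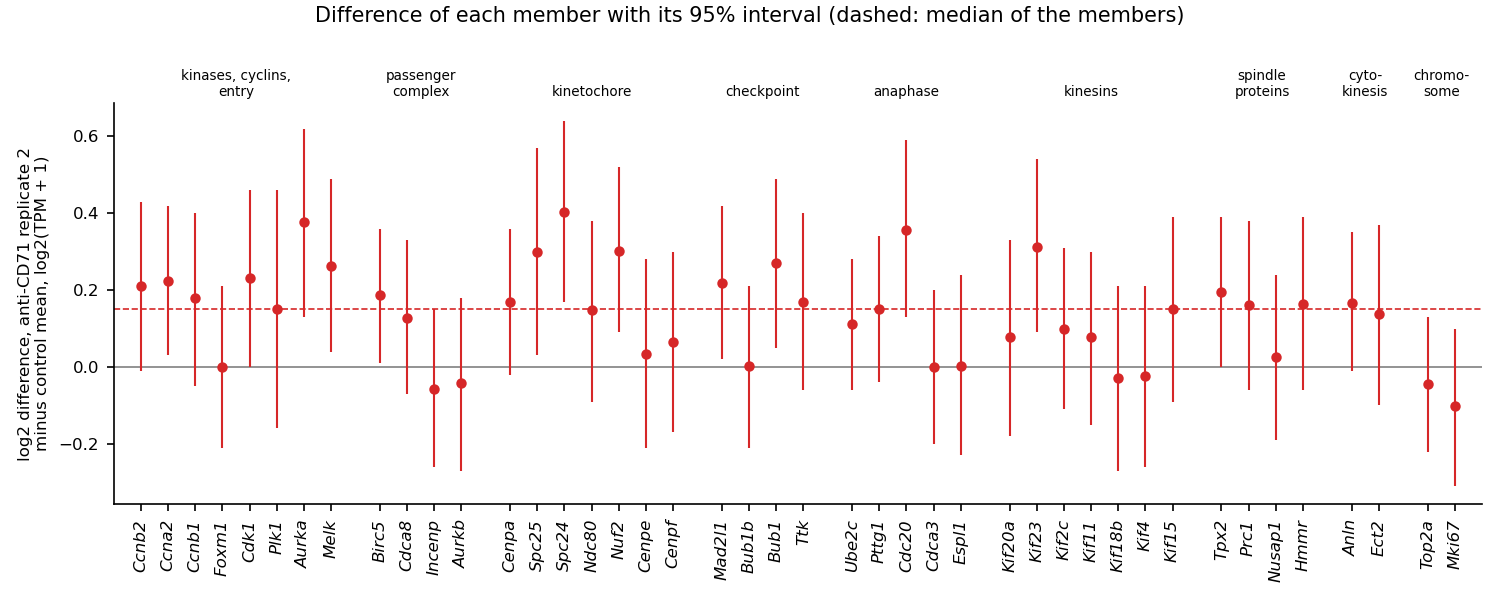
Log2 difference between anti-CD71 replicate 2 and the mean of the controls for each of the 43 members, on the log2(TPM + 1) scale, with its 95% interval from limma and grouped by role. Of the intervals, 11 lie above 0 and 0 below it, and the dashed line marks the median of the members at 0.15.

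The differences of members with and without the promoter elements can be set side by side for the 36 members with a window, which leaves out Spc24, and were not tested against each other. The 27 members with a CHR, read as TTTGAA on either strand, had a median of 0.15 with a range from -0.10 to 0.38. The 9 without one, among them Bub1, which has the second form TTCGAA, had a median of 0.19 with a range from 0.03 to 0.30. For the CCAAT box these medians were 0.15 over 26 members and 0.16 over 10. Aurka (0.38), Cdc20 (0.36) and Kif23 (0.31), whose windows have both elements, had the highest differences of these 36 members. Nuf2, whose window has neither element, followed at 0.30, and Mki67, which has both, was lowest.

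Anti-CD71 replicate 1 could be read for 6 members, by the sum of the transcripts listed in all 4 files, and it stood lower than replicate 2 for most of them. It was below both controls for 4 of the 6 and above both for 2, while replicate 2 was above both for 4. Over all 1563 genes of this comparison, replicate 1 was below both controls for 47.4% and above both for 33.9%, and replicate 2 was above both for 44.8%. The TPM of the 6 members added up to 600.19 and 611.84 in the controls, then 603.64 in anti-CD71 replicate 1 and 644.71 in replicate 2. With all 4 libraries, 0 of the 6 members were called, against 4.29% of all tested genes, 0.832% higher and 3.45% lower. Of the 6, 1 had an unadjusted p under 0.05 and was higher, against 11% of all tested genes higher and 15.6% lower. A positive difference was found for 4 of the 6, against 48.6% of all tested genes. The median log2 difference of the 6 was 0.01, and that of all tested genes -0.01.

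Kif11 showed the gap between the treated libraries most clearly. Its TPM was 35.66 and 34.84 in the controls, then 29.56 in anti-CD71 replicate 1 and 37.24 in replicate 2, so the treated libraries lay on either side of the controls (-0.25 and 0.08 against the control mean). Its file entry has 2 placements of 1 transcript with the same values, which were added. Kif2c had the same pattern at 45.51, 44.54, 42.04 and 48.61 TPM, with differences of -0.10 and 0.11. Ube2c, at 252.4, 256.95, 248.02 and 275.52 TPM, was also below both controls in replicate 1 and above both in replicate 2. In the fit over all 4 libraries the log2 difference was -0.08 for Kif11 (SE 0.12, 95% interval -0.38 to 0.21, limma adjusted p = 0.691), 0.01 for Kif2c (adjusted p = 0.974) and 0.04 for Ube2c (95% interval -0.15 to 0.22, adjusted p = 0.775).

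The other 3 members listed to at least 90% had treated libraries that lay on the same side of the controls or close to them. By its listed transcripts (92.0% of the gene), Pttg1 was above both controls in both treated libraries: 135.93 and 142.35 TPM in the controls, then 158.37 in anti-CD71 replicate 1 and 154.42 in replicate 2 (log2 difference 0.17, SE 0.06, 95% interval 0.01 to 0.33, unadjusted p = 0.0439, limma adjusted p = 0.175). The listed transcripts of Aurkb (94.8% of the gene) were below both controls in both, although the whole gene lay between the controls in replicate 2, with listed values of 60.09 and 64.35 TPM in the controls, 54.61 in replicate 1 and 59.13 in replicate 2 (-0.13, SE 0.08, 95% interval -0.33 to 0.07, adjusted p = 0.351). Cdca3 was level at 70.6, 68.81, 71.04 and 69.79 TPM (0.01, adjusted p = 0.9). Over all genes of this comparison, both treated libraries were above both controls for 28.3% and below both for 31.1%.

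A further 13 members were listed in part, and for them the listed transcripts alone can be compared across the 4 libraries. In the order control replicates 1 and 2, anti-CD71 replicates 1 and 2, the listed TPM of Cenpa (76.6% of the gene) was 96.04, 94.41, 94.44 and 112.86. That of Top2a (67.5%) was 145.08, 147.58, 129.32 and 145.72, and that of Melk (66.7%) 21.98, 20.78, 21.16 and 22.25. For these 3 genes replicate 1 was again the lower of the treated libraries, and for Cenpa and Melk replicate 2 was the highest of the 4 libraries. Nusap1 (83.9%) fared differently, with 46.38 and 41.31 TPM in the controls and 28.96 and 34.33 in the treated libraries. Anln (51.1%) stood at 95.56, 91.63, 64.87 and 61.15. In both, the listed transcript was below both controls in both treated libraries, although the whole gene in replicate 2 was above them. Prc1 (36%) went the other way, at 16.4, 18.82, 22.65 and 23.31. The listed transcripts of Ect2 (17.2%) had 6.88, 6.34, 5.37 and 4.23 TPM and those of Tpx2 (6.88%) 6.89, 4.77, 5.88 and 7.38. Under 5% of the gene was listed for the remaining 5. Their listed TPM in the same order was 4.39, 1.31, 8.57 and 0.99 for Mki67 (2.31%), and 1.31, 1.37, 0.44 and 0.67 for Spc25 (2.08%). It was 1.03, 0.71, 1.66 and 0.88 for Aurka (1.61%), 0.51, 1.16, 1.53 and 0.73 for Kif20a (1.26%), and 0, 0.43, 0.11 and 0.3 for Ttk (0.818%). These small shares say little about the genes. The other 24 members had no listed transcript, so replicate 1 cannot be read for them, among them Spc24, Cdc20 and Kif23.

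The members have 122 RefSeq transcripts, 12 genes with 1 and 31 with more, and limma was also run transcript by transcript, a choice made after seeing the data. Of 97 member transcripts tested over 3 libraries and 21 over 4, 0 were called, while 0.0497% and 0.0694% of all transcripts tested were called in either direction. At an unadjusted p under 0.05 these numbers were 21 and 4, while 16.1% and 16.5% of all transcripts tested passed it. How the program that made the TPM shared reads between transcripts of a gene is not given in the sources used here. Over 4 libraries, both treated libraries were above both controls for 2 of the 21 transcripts (1 of Prc1, 1 of Pttg1), against 20.8% of all transcripts tested, and below both for 5 (1 each of Anln, Aurkb, Ect2, Nusap1 and Spc25), against 29.1%.

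Within Anln the transcripts differed in opposite directions. XM_006510581, the one listed in all files, held 61.5% and 58.8% of the gene in the controls, against 35.0% in anti-CD71 replicate 2. Its log2 difference over 4 libraries was -0.56 (unadjusted p = 0.000638, limma adjusted p = 0.129 among transcripts). XM_011242594 stood at 23.54 and 30.96 TPM in the controls and 73.49 in replicate 2 (log2 difference 1.41, adjusted p = 0.155), and NM_028390 at 35.82, 32.87 and 39.55. When genes entered the comparison of 4 libraries with at least 50% of their TPM listed, Anln, then read by XM_006510581 alone, fell (-0.56, SE 0.07, limma adjusted p = 0.0347), the sole call of a member among the settings run. It was 1 of 11 members tested there, against 2.81% of all 2523 genes called in either direction and 2.3% called lower. The whole gene, read in 3 libraries, was above both controls.

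Mki67, Nusap1 and Pttg1 also had transcripts that differed in opposite directions, none of them called. For Mki67, XM_006507413 made up 59.1% and 65.3% of the gene in the controls, against 87.4% in anti-CD71 replicate 2, at 59.81, 63.29 and 80.57 TPM. XM_006507412 stood at 31.25 and 27.12 TPM in the controls and 9.33 in replicate 2 (log2 difference -1.54, adjusted p = 0.118), and NM_001081117 at 5.71, 5.16 and 1.27. XM_006507411 was also below both controls in replicate 2, at 4.39, 1.31 and 0.99 TPM (-0.83, adjusted p = 0.556). The lower total of Mki67 in replicate 2 thus joined 1 higher and 3 lower transcripts. For Nusap1, NM_133851 was below both controls in both treated libraries, while XM_030246564 stood at 1.06 and 5.73 TPM in the controls and 13.03 in replicate 2. For Pttg1, XM_006533516 was above both controls in both treated libraries, at 50.54, 50.51, 77.76 and 65.79 TPM (0.49, adjusted p = 0.168). NM_001131054 of the same gene was not, at 85.39, 91.84, 80.61 and 88.63 TPM (-0.07, adjusted p = 0.726).

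**Figure D4:**
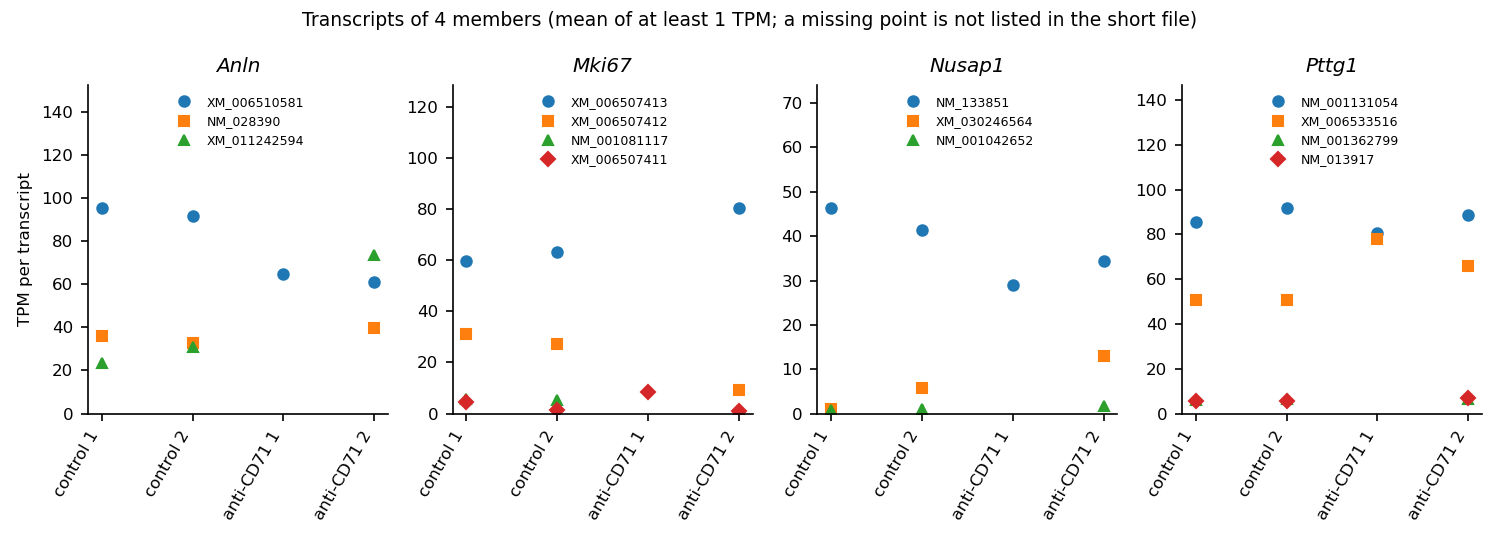
TPM in each library of the transcripts of Anln, Mki67, Nusap1 and Pttg1 that average at least 1 TPM, a missing point being a transcript that the short file does not list. For Anln, XM_006510581 lies at 64.87 and 61.15 TPM in the treated libraries, below its 95.56 and 91.63 in the controls, and XM_011242594 stands at 73.49 in replicate 2.

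Other genes of cell division stood much as the members did in anti-CD71 replicate 2. Of 107 further mitosis genes tested, 84 had a positive difference, with a median of 0.14, and 0 were called. The 34 kinetochore genes among them had a median of 0.18, from Ska1, which helps kinetochores follow microtubule ends, at 0.41 to Kntc1 at -0.12. The 17 condensin and cohesin genes had a median of 0.08 (Smc2 0.32, Ncapd3 -0.10), the 25 further spindle, motor and centrosome genes 0.05 (Gtse1 0.27, Numa1 -0.34), the 7 cytokinesis genes 0.10 (Septin7 0.47, Cit -0.11) and the 25 genes of entry, exit and their transcription factors 0.14 (Depdc1a 0.47, E2f8 -0.22). The 14 core subunits of the anaphase-promoting complex had a median of 0.05 (Anapc4 0.26, Anapc5 -0.18). The 29 S phase genes, for DNA replication, had the highest median of these lists, 0.22, with 27 positive, and 0 were called (Ccne2 0.51, Pole -0.10). Of 17 G1 cyclins and cell cycle inhibitors, Btg2, an antiproliferative gene, was the 1 called, and it fell: it stood at 20.87 and 25.95 TPM in the controls, against 9.34 in anti-CD71 replicate 2 (-1.23, limma adjusted p = 0.0323). The median of that list was 0.00. The call on Btg2 was lost without the filter on low values, with 1 library enough to pass it, and without the trend in the variance prior.

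Over 4 libraries, 11 of the further mitosis genes could be tested, with a median of 0.04, and 6 S phase genes, with a median of 0.11. None of them was called. The kinetochore genes ran from Knl1 at 0.04 to Ska3 at 0.26, the spindle genes from Ckap5 at -0.15 to Bora at 0.02, the entry and exit genes from E2f7 at -0.03 to Pbk at 0.27 and the S phase genes from Pole at -0.05 to Mcm2 at 0.18. Single genes represented the condensins (Ncaph -0.02), the anaphase-promoting complex (Anapc7 0.09) and the G1 list (Ccng2 0.07).

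Markers of other cell types moved with the treated library, in the same bulk RNA. Over all tested genes, 42.5% were below both controls and 39.5% above both, and the shares called in this comparison are given above. Summed TPM of 11 macrophage markers was 3779.82 and 4572.05 in the controls, against 1984.55 in anti-CD71 replicate 2. All 11 were below both controls and 7 were called lower. Csf1r, the receptor that defines the lineage, was low in both treated libraries, at 125.77 and 156.93 TPM in the controls, then 69.38 in anti-CD71 replicate 1 and 66.83 in replicate 2 (-1.03, limma adjusted p = 0.032 over 4 libraries). Of 10 cytotoxic lymphocyte markers 6 of the 8 tested were called lower (summed TPM 255.75, 246.3 and 63.35), and of 9 erythroid markers 4 of the 5 tested (3375.05, 3748.39 and 1006.88). Over 4 libraries, 3 of the macrophage markers could be tested, and Csf1r and Cd14 (-0.44, limma adjusted p = 0.0388) were called lower. Mertk (-0.36, limma adjusted p = 0.114) was not, and 3.45% of all genes tested over 4 libraries were called lower. Of the cytotoxic markers 3 could be tested over 4 libraries and 0 were called. Their log2 differences were -0.96 for Gzmb, -1.31 for Ncr1 and -0.87 for Cd3g (limma adjusted p = 0.241, 0.0554 and 0.0651). Gzmb differed between the treated libraries, with 100.74 and 84.83 TPM in the controls, 79.54 in replicate 1 and 27.62 in replicate 2. Replicate 1 was also the higher treated library for Ncr1 (5.1 and 2.52 TPM) and Cd3g (3.23 and 2.0). Of 8 fibroblast markers 1 was called lower (879.3, 1242.04 and 807.7) and of 5 endothelial markers tested 0 (67.97, 69.0 and 59.05). Of 7 neutrophil markers 4 of the 5 tested were above both controls (69.75, 88.52 and 574.39), with Retnlg at 0 in the controls. Most of the last sum came from S100a8 and S100a9, at 265.49 and 212.99 TPM in replicate 2. Csf3r differed by 0.40, and Mmp9, which lay between the controls, by -0.08. B and plasma cell markers were too low to test (1.5, 2.49 and 0.95), 1 of 2 adipocyte markers tested was called higher (80.16, 105.06 and 123.74) and 0 of 4 skeletal muscle markers (105.3, 25.08 and 70.93).

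Epithelial markers were also read, and the cells they came from are not known in bulk RNA. Of 12 squamous and basal markers 2 of the 6 tested were called higher (1933.27, 2022.87 and 2371.95), among them Krt18, which rose from control values of 657.36 and 680.49 TPM to 893.37 in anti-CD71 replicate 2 (0.42, limma adjusted p = 0.0438). The other called gene was Sfn, with a larger log2 difference of 2.49, at 2.74 and 2.53 TPM in the controls and 19.35 in replicate 2. Most of the summed TPM of this list came from Krt18 and from Krt8, which stood at 1132.27, 1202.77 and 1255.9 TPM. The defining squamous keratins were near 0 in the controls although the line is labelled a squamous carcinoma. Krt5 had 0 TPM in both controls and 31.4 in replicate 2. Krt14 had 0.09 and 0.1 in the controls and 36.37 in replicate 2. The summed TPM of 10 differentiated epidermis markers was 1.69, 1.94 and 44.18, with 8 of them at 0 in both controls (Krt1, Lor, Flg, Ivl, Krtdap, Dsg1a, Calml3 and Lce1a1). Sbsn was the 1 that could be tested, at 1.69 and 1.9 TPM in the controls and 8.14 in replicate 2 (log2 difference 1.71). None of the calls on marker genes held without the filter on low values, where limma called 0 genes over 3 libraries (3401 had an unadjusted p under 0.05) and 0 genes lower over 4. The part of these shifts in marker genes in the differences of the mitosis genes was not tested.

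**Figure D5:**
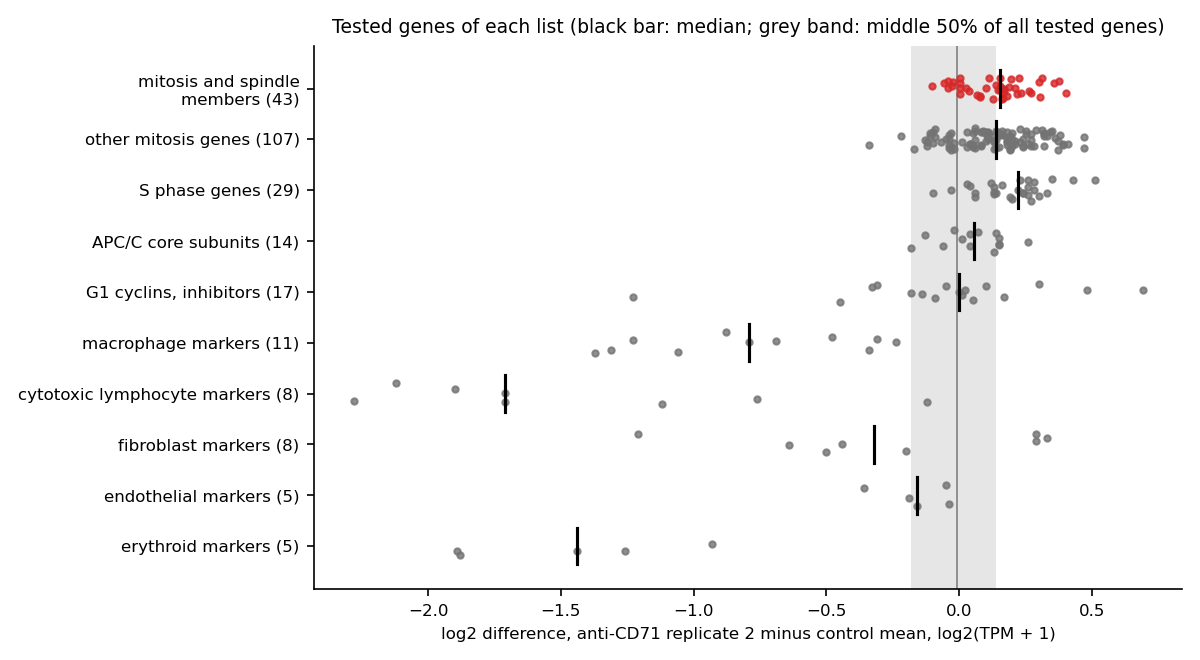
Log2 difference between anti-CD71 replicate 2 and the control mean, on the log2(TPM + 1) scale, for each tested gene of the 43 members, of other cell cycle lists and of cell type marker lists. Bars mark medians, 0.15 for the members, 0.22 for the S phase genes and -0.79 for the macrophage markers, and the grey band spans the quartiles of all tested genes, -0.18 to 0.14.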

How the data were processed

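Bulk RNA was sequenced in 2 control and 2 anti-CD71 libraries from tumours of SCC7 cells. Per the labels' protocols, BGI extracted the RNA and made the libraries. The authors deposited 1 table per library of TPM per RefSeq transcript, written to 2 decimals. The submitters' processing notes name the build GRCm38.p6. The aligner, the abundance program and the handling of strand were not given in the sources used here, and overlapping genes may share reads.

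Transcripts were matched to symbols through RefSeq's gene table for that build (58425 of 59881), and their TPM were added per gene. Unmatched transcripts held 1.42% to 1.55% of the TPM and were dropped. Genes reaching 1 TPM in at least 2 libraries were tested with limma 3.58.1 (R 4.3.3), its variance prior following a trend over expression level, on log2(TPM + 1). That scale understates changes of low genes. The procedure was run on simulated data with planted changes larger than the difference of any member gene. How well differences as small as those of the members are recovered was not tested. Each library had equal weight, as depth is unknown.

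The members and gene lists were chosen with earlier results of these data known. Text names every called member, the 4 members with the highest and the 4 with the lowest difference in each comparison, and the 3 highest and 3 lowest by control mean. From each further list it names the called genes, at most 4 a direction, or where none was called the genes with the highest and lowest difference. In the marker lists, counts of calls, or of markers above both controls, stand for most of the called genes. Csf1r, Cd14, Mertk, Gzmb, Ncr1, Cd3g, S100a8, S100a9, Csf3r, Mmp9, Sfn, Sbsn, Krt8, Krt5 and Krt14 were named after their values were seen. So were transcripts and the kinetochore and other members described by role. Promoter windows came from RefSeq. Alternatives changed the pseudocount, filter, scaling, variance prior, listing rule, replicate block and libraries.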

Additional observations from a re-analysis of the deposited data

How the results depend on the processing

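The call count of the members stayed at 0 in both comparisons under every setting run, except for Anln with a listed share of at least 50%, where 1 of 11 members was called lower, against 2.3% of the 2523 genes tested. The smallest adjusted p of a member in the 3-library comparison ran from 0.0728 with median scaling to 0.202. Counts over all genes moved far more, and the cause was not tested. Over 4 libraries (13 higher, 54 lower), they were 1 and 0 without the filter on low values, 1 and 7 with 1 library enough to pass it, 1 and 3 without the variance trend, and 2 and 2 with any listed transcript. With median scaling, 19 and 37 were called. With the replicate number as a block, 2 genes were called higher and 1 lower. Deviations of same-numbered libraries had a correlation of -0.006 over 1563 genes. With 2 pairs this cannot show whether same-numbered libraries share anything beyond the number, and the labels do not say. Leaving out 1 library gave 1 to 35 higher and 0 to 61 lower calls: 1 and 0 without control replicate 1, 2 and 0 without control replicate 2, 35 and 61 without anti-CD71 replicate 1, and 11 and 22 without anti-CD71 replicate 2. Over 3 libraries (57 higher, 286 lower), no filter gave 0 and 0 (3401 genes at an unadjusted p under 0.05), a filter in 1 library 60 and 12, median scaling 95 and 371, and no variance trend 13 and 22. Without a control the 3-library comparison has no residual degrees of freedom, and only values are given.

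The median difference of the members over 3 libraries was 0.15, with 0.14 to 0.15 when a control was left out. Over 4 libraries it was 0.01, with 0.02 under median scaling and with any listed transcript. Leaving out 1 library gave -0.07 to 0.09, the lowest without anti-CD71 replicate 2 and the highest without anti-CD71 replicate 1. A few small differences turned sign. When anti-CD71 replicate 1 joined the fit over all genes where listed, Kif11 came to -0.08, E2f7 to -0.03 and Ncaph to -0.02. With 1 library left out over 4 libraries, the ranges were -0.25 to 0.08 for Kif11, -0.1 to 0.11 for Kif2c, -0.04 to 0.11 for Ube2c, -0.0038 to 0.03 for Cdca3, -0.08 to 0.16 for Knl1, -0.1 to 0.06 for Ncaph, -0.17 to 0.2 for Bora, -0.18 to 0.11 for E2f7 and -0.03 to 0.17 for Ccng2. Over 3 libraries they were -0.09 to 0.01 for Aurkb, -0.01 to 0.02 for Cdca3, -0.01 to 0.08 for Cenpe, -0.03 to 0.04 for Espl1, -0.04 to 0.04 for Foxm1 and -0.06 to 0.004 for Kif18b. TPM hides depth, 1 treated library carries the comparison of all 43 members, and 6 of them could be read in both treated libraries.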
